A study of Mus musculus with 8 samples.

Results

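The genes described here make, bind, answer to or break down retinoic acid in mouse colon tumours: Stra6, Crabp1, Crabp2, Rdh10, Aldh1a1, Aldh1a2, Aldh1a3, Cyp26b1 and Rarb. They are 9 of the 20275 gene symbols in the transcript tables. They were chosen because Aldh1a2 and Aldh1a3 moved in opposite directions between the genotypes in stromal wells. Their genotype values in stromal wells are therefore given as a description without a test.

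Tumours grew from organoids of mutant colon epithelium placed in the caecum of mice on an FVB background. All mice were Zeb1 fl/fl and received a tamoxifen diet. FibΔZeb1 mice also carried a tamoxifen-inducible Cre, named Col1a1Cre-ERT2 in the labels and Col1a2-CreERT2 in the study's methods, and their FibCtrl littermates of both sexes lacked it. Each of 8 mice (4 per genotype) gave one 384-well plate of single cells, sorted through a CD45-positive, an EPCAM-positive and a triple-negative gate, so the number of wells per gate was set by the sort. Cre acts where its collagen promoter is active, and the 3′-end counts cannot show which wells lost the floxed exon. The age of the mice is not given in the sources used here.

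Retinoic acid is made from vitamin A in a pair of oxidation steps. STRA6 is a membrane receptor that takes up retinol from its carrier protein, RDH10 oxidises retinol to retinal, and the ALDH1A enzymes oxidise retinal to retinoic acid. CRABP proteins bind retinoic acid in the cytoplasm, CYP26 enzymes degrade it, and retinoic acid receptors such as RARβ carry its signal to genes. In the gut, retinoic acid from epithelium, stroma and dendritic cells is known for its part in homing and differentiation of lymphocytes. ALDH1A2 is the enzyme of the embryonic mesoderm and of mesothelium.

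Depth set what could be seen. The plates held 981881 to 5905188 cell transcripts, with FibCtrl replicate 2 the shallowest at a median of 221 per well. Of 3072 wells, 1831 were kept and 1413 were given a class from marker genes, among them 371 epithelial-like wells and 149 fibroblast-like wells after 36 with Ptprc or Epcam transcripts were set aside. Fibroblast-like wells numbered 46, 4, 10 and 26 across the FibCtrl plates in replicate order, and 24, 6, 17 and 16 across those of FibΔZeb1. Plates with at least 10 wells of a class enter its means and tests, so fibroblast-like values rest on 3 plates per genotype. Levels are transcripts per 1000000 cell transcripts (CPM). All 10 fibroblast markers, from Col1a1 to Postn, were detected in these wells on every plate except FibCtrl 3, where Dpt was at 0. Transcripts of the fibroblast collagens were not confined to them: 331 of 371 epithelial-like wells (89.2%) and 558 of 796 immune wells (70.1%) held 2 or more from Col1a1 or Col3a1.

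Zeb1, the deleted gene, was measured at 93.2, 0, 0 and 83.4 CPM in fibroblast-like wells of FibCtrl plates 1 to 4 and at 43.6, 44.0, 48.0 and 27.8 CPM on the FibΔZeb1 plates. The means of Zeb1 were 58.9 ± 51.2 CPM (SD, n = 3) and 39.8 ± 10.6 CPM (SD, n = 3), and the genotypes overlapped. The log2 difference was -0.89 (SE 0.53, adjusted p = 0.9996 by edgeR's quasi-likelihood test). The 3′ end lies outside the deleted exon, so this level does not check the deletion. Both FibCtrl plates at 0 were shallow in this class, with 81166 and 75017 transcripts, and their upper limits were 45.4 and 49.2 CPM for Zeb1.

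Aldh1a2, on which the choice of genes turned, and Rarb, the receptor gene whose own promoter is a textbook retinoic acid target, are shown with the 250 bases before a RefSeq start site (GRCm38.p6, 5′ to 3′ on the gene's strand). Aldh1a2 spans chromosome 9 from 71215789 to 71296243 on the forward strand, and its window is chr9:71215539-71215788. Capitals mark CACCTG, the E-box that ZEB proteins are known to bind, from 11 to 6 bases before the start.
Aldh1a2: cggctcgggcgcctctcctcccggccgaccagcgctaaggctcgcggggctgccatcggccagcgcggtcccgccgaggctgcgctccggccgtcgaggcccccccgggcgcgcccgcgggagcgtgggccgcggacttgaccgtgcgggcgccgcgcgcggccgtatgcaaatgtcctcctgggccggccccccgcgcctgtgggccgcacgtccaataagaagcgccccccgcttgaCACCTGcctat
The Rarb window is chr14:16575477-16575726 on the reverse strand, at an internal start of a gene that spans 16430839 to 16819156. Capitals mark a direct repeat of the kind retinoic acid receptors bind, whose core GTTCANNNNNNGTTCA lies 52 to 37 bases before the start.
Rarb: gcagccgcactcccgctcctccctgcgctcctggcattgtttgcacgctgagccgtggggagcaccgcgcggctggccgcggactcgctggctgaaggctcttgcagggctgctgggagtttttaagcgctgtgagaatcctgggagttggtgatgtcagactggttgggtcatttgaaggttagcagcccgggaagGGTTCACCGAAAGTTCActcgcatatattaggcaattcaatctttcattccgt
Over both strands of 32851 RefSeq windows of this length, 17.2% held CACCTG and 0.21% held a repeat of GGTCA or GTTCA with 6 bases between the 5-base blocks. Of the 10 windows found for 6 of the 9 genes, 2 held CACCTG (Aldh1a2 and, on the opposite strand 163 to 158 bases before a start, Aldh1a1) and 1 held the repeat (Rarb). A repeat with 3 bases between the blocks was in 0.292% of all windows and in 0 of the 10. No window for Aldh1a3, Rdh10 or Crabp2 was used here. A match describes the letters and is not evidence of binding in these cells.

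Aldh1a2, which encodes retinaldehyde dehydrogenase 2, was high in fibroblast-like wells of every FibΔZeb1 plate and low on every FibCtrl plate. FibCtrl plates 1 to 4 measured 48.7, 0, 40.0 and 57.6 CPM of Aldh1a2, from 49, 0, 3 and 40 transcripts, with an upper limit of 45.4 CPM for the plate at 0. FibΔZeb1 plates 1 to 4 measured 688, 1163, 1036 and 661 CPM, from 474, 79, 583 and 190 transcripts. The lowest FibΔZeb1 plate was thus far above the highest FibCtrl plate, including plates 2 of both genotypes, which had fewer than 10 wells. Means over plates with at least 10 wells were 48.8 ± 8.80 CPM in FibCtrl and 795 ± 209 CPM in FibΔZeb1 (SD, n = 3 each), a ratio of 16.3. The fitted log2 difference in Aldh1a2 was 3.93, and it was between 3.72 and 4.05 with any 1 plate left out. With mesothelial-like and pericyte-like wells added, it was 2.03. Over these stromal wells together, the highest FibCtrl plate, FibCtrl 3, was at 371 CPM and the lowest FibΔZeb1 plate, FibΔZeb1 1, at 473 CPM. In fibroblast-like wells Aldh1a2 was the only one of the 9 genes whose plates did not overlap between the genotypes. Of the 7237 genes tested, which included 4 of the 9, 9.77% did not overlap and 7.2% lay higher on every FibΔZeb1 plate. Since Aldh1a2 was chosen on this shift, its separation is a description and no test against that share. Within the first flow cell Aldh1a2 stood at 48.7 CPM on FibCtrl 1 against 688 CPM on FibΔZeb1 1, and within the second at 40.0 and 57.6 CPM against 1036 and 661 CPM.

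Aldh1a3 encodes another retinaldehyde dehydrogenase and lies on chromosome 7 from 66390890 to 66427517 on the reverse strand. It measured 152, 86.4, 0 and 67.7 CPM in fibroblast-like wells of FibCtrl plates 1 to 4, from 153, 7, 0 and 47 transcripts. On FibΔZeb1 plates 1 to 4 Aldh1a3 measured 26.1, 73.3, 10.7 and 59.1 CPM, from 18, 5, 6 and 17 transcripts. The genotypes overlapped, since FibCtrl 3 had no Aldh1a3 transcript among 75017 (upper limit 49.2 CPM). Means were 73.2 ± 76.1 CPM in FibCtrl and 32 ± 24.8 CPM in FibΔZeb1 (SD, n = 3 each), a difference smaller than the spread between FibCtrl plates. The fitted log2 difference in Aldh1a3 was -1.65, and -0.76 without FibCtrl 1, the plate with most of its transcripts. Within the second flow cell the FibCtrl plates lay at 0 and 67.7 CPM of Aldh1a3 and the FibΔZeb1 plates at 10.7 and 59.1 CPM.

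**Figure D1:**
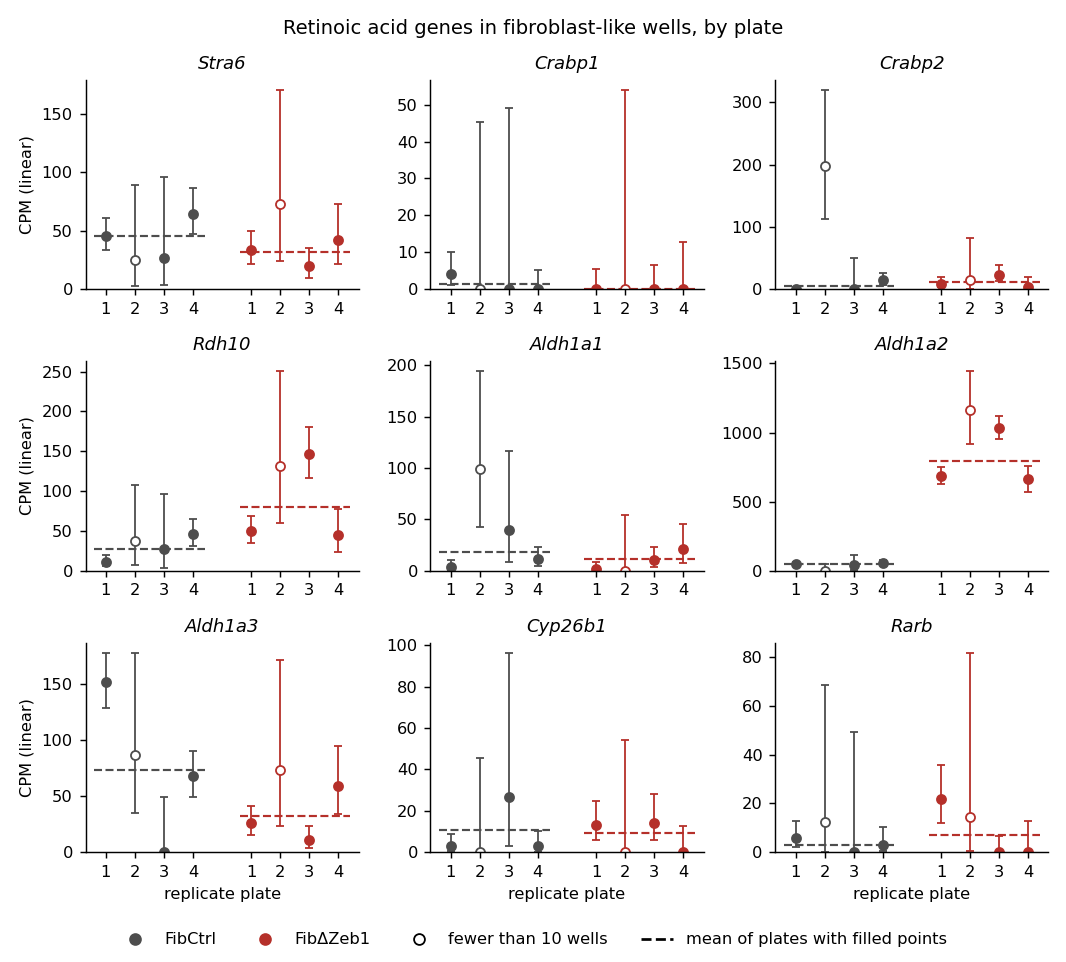
Level of each of the 9 genes (CPM, linear axes that differ between panels) in fibroblast-like wells, 1 point per plate, with exact 95% Poisson intervals that cover counting error only. Open points are plates with fewer than 10 wells and dashed lines the means of the other plates. Aldh1a2, chosen on its shift in stromal wells, is the only gene whose FibΔZeb1 points (661 to 1163 CPM) all lie above its FibCtrl points (0 to 57.6 CPM).

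Aldh1a2 was detected in a larger share of FibΔZeb1 wells, although few wells held much of its count. A transcript of Aldh1a2 was found in 12 of 86 FibCtrl fibroblast-like wells (14.0%, exact 95% binomial interval 7.42 to 23.1%) and in 46 of 63 FibΔZeb1 wells (73.0%, interval 60.3 to 83.4%), at median depths of 16621 and 19298 transcripts. After each well was thinned to 1000 transcripts, with 2 shallower wells left out per genotype, 4 of 84 FibCtrl wells (4.76%) and 23 of 61 FibΔZeb1 wells (37.7%) held Aldh1a2. On FibCtrl 1, a single well carried 39 of the plate's 49 Aldh1a2 transcripts. On the FibΔZeb1 plates the richest well held 30.9% to 55.7% of them. The share of wells with Aldh1a2 in epithelial-like wells, which are not known as a source of it, was 5.56% in FibCtrl and 25.4% in FibΔZeb1 before thinning, at median depths of 33686 and 23121.

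Aldh1a3 was found in 36 of 86 FibCtrl wells (41.9%) and 18 of 63 FibΔZeb1 wells (28.6%) before thinning. Thinned to 1000 transcripts, Aldh1a3 was in 11 of 84 FibCtrl wells (13.1%) and in 0 of 61 FibΔZeb1 wells, whose interval reached 5.87%. Thinned to 3000, Aldh1a3 was in 20 of 76 FibCtrl wells (26.3%) and 8 of 57 FibΔZeb1 wells (14.0%, exact 95% binomial interval 6.26 to 25.8%), so the absence at 1000 did not hold at the greater depth. Epithelial-like wells with Aldh1a3 made up 9.88% in FibCtrl and 9.09% in FibΔZeb1. Both genes together were in 5 of 86 FibCtrl and 13 of 63 FibΔZeb1 fibroblast-like wells. Aldh1a2 alone was in 7 and 33 wells, Aldh1a3 alone in 31 and 5, and neither gene in 43 and 12. Wells are not replicates, and these counts are given without a test.

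**Figure D2:**
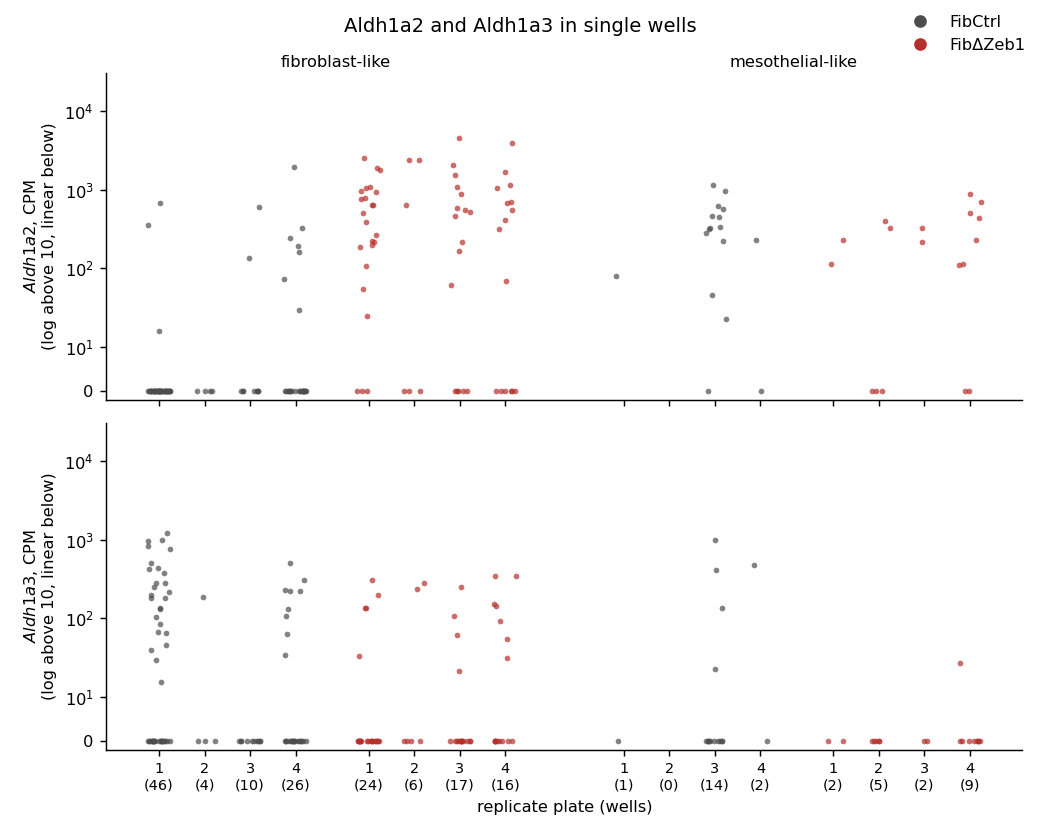
Aldh1a2 (upper) and Aldh1a3 (lower) in single fibroblast-like and mesothelial-like wells (CPM, log scale above 10 and linear below), 1 point per well, grouped by plate with the number of wells in brackets. In fibroblast-like wells, 46 of 63 FibΔZeb1 points and 12 of 86 FibCtrl points lie above 0 for Aldh1a2.

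The fibroblast-like wells formed 2 clusters, one led by Mgp with Col8a1, Tnc and Tagln, and one led by Dcn with Dpt and Lum. Summed over plates, Aldh1a2 was higher in FibΔZeb1 in both. It was 44.2 CPM in FibCtrl and 689 CPM in FibΔZeb1 in the Mgp-led cluster, and 52.0 and 1000 CPM in the Dcn-led cluster. The plates differed in which cluster held most of it. On FibΔZeb1 1, 470 Aldh1a2 transcripts came from 22 Mgp-led wells (791 CPM) and 4 from 2 Dcn-led wells (42.2 CPM). On FibΔZeb1 3, 530 came from 7 Dcn-led wells (1310 CPM) and 53 from 10 Mgp-led wells (335 CPM), and FibΔZeb1 4 was alike with 891 and 222 CPM. FibCtrl plates lay between 0 and 66.6 CPM in the Dcn-led cluster and between 0 and 155 CPM in the Mgp-led cluster. In the Dcn-led cluster FibΔZeb1 1 and FibΔZeb1 2, whose 1 well held no Aldh1a2, lay within the FibCtrl range.

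Aldh1a3 was mostly a transcript of the Dcn-led cluster in FibCtrl, at 143 CPM summed over plates against 42.5 CPM in the Mgp-led cluster. In FibΔZeb1 Aldh1a3 measured 29.9 CPM in the Dcn-led and 27.6 CPM in the Mgp-led cluster. Single plates of the Dcn-led cluster were at 220, 96.3 and 75.4 CPM of Aldh1a3 in FibCtrl 1, 2 and 4 and at 0, 284, 2.47 and 84.8 CPM in FibΔZeb1 1 to 4, where 284 CPM is 4 transcripts in 1 well. FibCtrl 3 had no Dcn-led well, and all of its 10 fibroblast-like wells were Mgp-led.

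Genes that mark other stromal cells were read in the same wells, since mesothelium also expresses Aldh1a2. Of 8 mesothelial markers found in the tables, 1 to 4 were above 0 per plate, and their summed level was 24.6 to 147 CPM on FibCtrl plates and 147 to 355 CPM on FibΔZeb1 plates. Lrrn4 and Bnc1 were at 0 on all 8 plates, while 1 to 4 other markers of the list were above 0 on each plate. Without the 8 of 86 FibCtrl and 4 of 63 FibΔZeb1 wells that held Msln, Upk3b, Upk1b, Lrrn4 or Bnc1, Aldh1a2 means were 38.9 and 806 CPM, and Aldh1a3 means 83.1 and 34.2 CPM. Wells that held only other mesothelial markers of the list stayed in. Pericyte markers summed to 49.3 to 1188 CPM on FibCtrl and 216 to 1424 CPM on FibΔZeb1 plates, and contractile genes such as Acta2 and Tagln to 728 to 5544 and 1829 to 8132 CPM. Adventitial genes such as Dpt and Pi16 summed to 766 to 10045 CPM on FibCtrl and 1233 to 5122 CPM on FibΔZeb1 plates. The part of these lists in the Aldh1a2 and Aldh1a3 values was not tested, and the wells left out above do not cover the whole mesothelial list.

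The genes upstream of the ALDH1A step overlapped between the genotypes in fibroblast-like wells. Rdh10 (chromosome 1, 16105774 to 16133734, forward strand) measured 10.9, 37.0, 26.7 and 46.0 CPM on FibCtrl plates 1 to 4 and 49.4, 132, 146 and 45.2 CPM on FibΔZeb1 plates 1 to 4. Its means were 27.9 ± 17.6 and 80.2 ± 57.0 CPM (SD, n = 3 each) and its fitted log2 difference was 1.53, with 0.77 without FibΔZeb1 3, 0.95 without FibCtrl 1 and 2.56 without FibCtrl 4. The genotypes overlapped for Rdh10 at FibCtrl 4, which lay just above FibΔZeb1 4. Stra6 (chromosome 9, 58063788 to 58153996, forward strand) measured 45.6, 24.6, 26.7 and 64.7 CPM on FibCtrl plates and 33.4, 73.3, 19.5 and 41.7 CPM on FibΔZeb1 plates. The means of Stra6 were 45.7 ± 19.0 and 31.5 ± 11.2 CPM (SD, n = 3 each), with a fitted log2 difference of -0.76 that was -0.46 without FibCtrl 4 and -0.48 without FibΔZeb1 3.

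The other 5 genes did not pass the filter on low counts in fibroblast-like wells and are given by their counts. Aldh1a1, a further retinaldehyde dehydrogenase (chromosome 19, 20492715 to 20643465, forward strand), had 23 transcripts in FibCtrl and 13 in FibΔZeb1 wells, or 12.4 and 8.09 CPM over all plates. Crabp2 (chromosome 3, 87948666 to 87953376, forward strand) had 26 and 21 transcripts, of which 16 came from the 4 wells of FibCtrl 2. Crabp1 (chromosome 9, 54764748 to 54773110, forward strand) had 4 transcripts, all on FibCtrl 1, the single plate that listed the gene. Cyp26b1, which clears retinoic acid (chromosome 6, 84571414 to 84593908, reverse strand), had 7 transcripts in FibCtrl and 17 in FibΔZeb1. Rarb had 9 and 16 transcripts, with 15 of the latter on FibΔZeb1 1 (21.8 CPM) and 0 on FibΔZeb1 3 and 4. Rarb and Cyp26b1 are known to be induced by retinoic acid, and neither showed plates that separated the genotypes at this depth.

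The smaller stromal classes had other levels. All 8 mesothelial markers were above 0 in the mesothelial-like wells of FibCtrl 3 and of every FibΔZeb1 plate, and all 8 pericyte markers in the pericyte-like wells of both plates named below. In mesothelial-like wells Aldh1a2 was high in both genotypes: FibCtrl 3, with 14 wells the only plate over 10, measured 421 CPM from 210 transcripts, and the FibΔZeb1 plates with 2 to 9 wells measured 190, 271, 273 and 445 CPM. A transcript of Aldh1a2 was in 15 of 17 FibCtrl and 13 of 18 FibΔZeb1 mesothelial-like wells. The same 14 wells of FibCtrl 3 held Aldh1a1 at 221 CPM, Rdh10 at 177 CPM and Aldh1a3 at 155 CPM, and Cyp26a1, a clearance enzyme of the CYP26 family, at 146 CPM from 73 transcripts. Cyp26a1 was at 0 to 15.1 CPM in mesothelial-like wells of the FibΔZeb1 plates. Aldh1a3 had 1 transcript in all 18 FibΔZeb1 mesothelial-like wells. With 1 plate holding most FibCtrl wells, plate and genotype cannot be told apart there.

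Cyp26b1 was highest in pericyte-like wells, named for the cells that wrap around small vessels. It measured 72.1 CPM in the 8 wells of FibCtrl 1 (14 transcripts) and 217 CPM in the 15 wells of FibΔZeb1 1 (56 transcripts). On FibΔZeb1 1 a single well held 46 of the 56 Cyp26b1 transcripts and 2 of 15 wells held any, while 5 of 8 wells did on FibCtrl 1. The 15 pericyte-like wells of FibΔZeb1 1 also held Rarb at 23.2 CPM and Aldh1a2 at 69.6 CPM. No other plate had more than 1 pericyte-like well, so Cyp26b1 has no replicate check in this class.

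**Figure D3:**
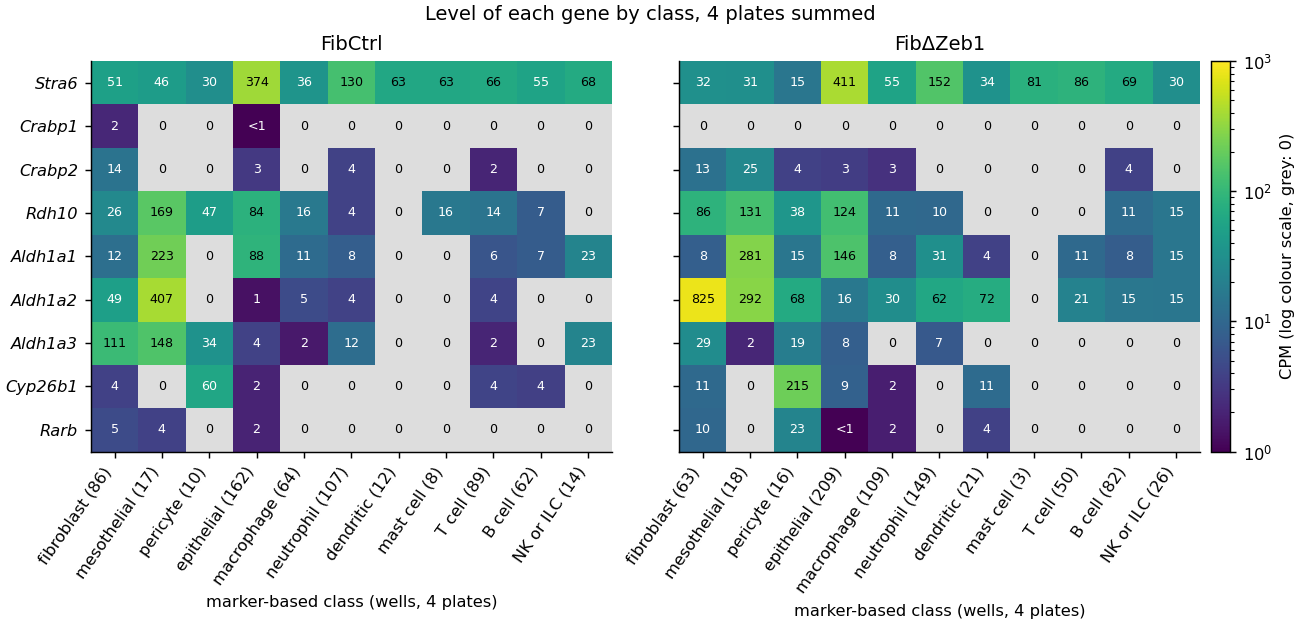
Level of each gene (CPM, transcripts of 4 plates summed, log colour scale with grey for 0) by marker-based class in FibCtrl (left) and FibΔZeb1 (right), with the number of wells in brackets. Stra6 is highest in epithelial-like wells of both genotypes (374 and 411 CPM), Cyp26b1 in pericyte-like wells, and Aldh1a2 in mesothelial-like wells of FibCtrl (407 CPM) and in fibroblast-like wells of FibΔZeb1 (825 CPM).

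Aldh1a2 was the more abundant in fibroblast-like wells, and Aldh1a1 and Stra6 in epithelial-like wells. Fibroblast-like and epithelial-like wells of the same plate were compared over 6 plates with plate as a block. Classes came from genes other than the 9 and the further retinoid genes, but from the same wells, which the p-values do not account for. Of the 9 genes, 4 passed the count filter and 3 differed (1 higher and 2 lower in fibroblast-like wells), where 38.8% of 9591 genes did (19.8% higher, 19.1% lower). Aldh1a2 was higher in fibroblast-like wells (log2 difference 6.0, SE 0.49, edgeR). The FibΔZeb1 level that chose Aldh1a2 enters that difference, so its call, counted above, is a description and no test. The epithelial-like class holds 103 wells of a cluster led by Twist1, Gtf2i, Wif1 and Bmp4, none of them on the epithelial marker list, mostly from FibCtrl 1 (53 wells) and FibΔZeb1 1 (38 wells). All 9 epithelial markers were above 0 there, at a sum of 3980 CPM beside 4051 CPM in the largest epithelial-like cluster, led by Tgm3, and the fibroblast markers summed to 2537 beside 633 CPM. Without that cluster, which left 4 plates, the log2 difference was 6.99 for Aldh1a2. It was -2.94 for Aldh1a1 and -2.99 for Stra6, both past the threshold in edgeR. On FibCtrl plates alone Aldh1a2 lay at 0 to 57.6 CPM in fibroblast-like and at 0 to 2.19 CPM in epithelial-like wells, and on the 3 FibCtrl plates with at least 10 fibroblast-like wells each fibroblast-like value was the higher.

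Aldh1a1 and Stra6 were higher in epithelial-like than in fibroblast-like wells. Aldh1a1 was not confined to the epithelial-like class. Its median well on FibCtrl 3 was at 106 CPM in 14 mesothelial-like wells and 51.2 CPM in epithelial-like wells. On FibΔZeb1 4 these medians were 507 CPM (9 wells) and 57.6 CPM. The mesothelial-like median was the higher on every plate with both classes, which was not tested. Aldh1a1 was lower in fibroblast-like wells by a log2 difference of -3.05 (SE 0.32, adjusted p = 8.5e-06, edgeR). Stra6 was lower by -2.83 (SE 0.28, adjusted p = 4.6e-06, edgeR). Rdh10 differed by -0.61 (SE 0.30, adjusted p = 0.126, edgeR) and did not pass, although it did without FibΔZeb1 3 (log2 difference -1.0, adjusted p = 0.011). Against immune wells, where 42.4% of 7381 genes differed (19.7% higher, 22.7% lower), 2 of the 9 genes were tested and 1 differed. The 1 was Aldh1a2, higher in fibroblast-like wells (log2 difference 4.35, SE 0.30, edgeR). That difference again includes the FibΔZeb1 level that chose Aldh1a2, so its call is a description and no test. On FibCtrl plates 1, 3 and 4 Aldh1a2 lay at 40.0 to 57.6 CPM in fibroblast-like and at 0 to 6.73 CPM in immune wells. Stra6 differed by -0.63 (SE 0.33, adjusted p = 0.15, edgeR) and did not pass, with neutrophil-like wells the richest immune class at 130 CPM in FibCtrl and 152 CPM in FibΔZeb1. Zeb1 was higher in fibroblast-like wells than in epithelial-like (log2 difference 4.14) and immune wells (1.55).

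**Figure D4:**
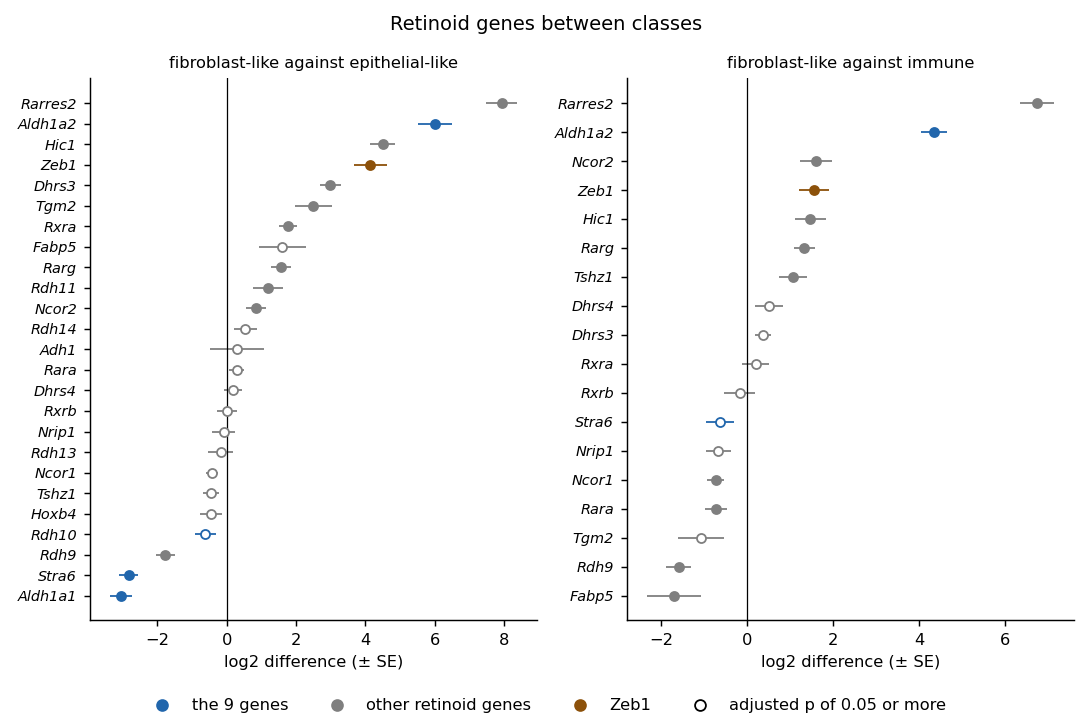
Log2 difference (± SE, edgeR with plate as block) of tested retinoid genes between fibroblast-like and epithelial-like wells (left) and immune wells (right), with positive values higher in fibroblast-like wells and filled points past an adjusted p of 0.05 (blue, the 9 genes; grey, other retinoid genes; brown, Zeb1). Aldh1a2 (6.0 and 4.35) lies near the upper end with Rarres2, and Aldh1a1 (-3.05) and Stra6 (-2.83) at the lower end on the left. The FibΔZeb1 level that chose Aldh1a2 enters its differences, so its filled points are no test.

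Between the genotypes, none of the 3 tested genes passed in epithelial-like wells, where 0 of 10225 genes (0.0%) passed an adjusted p of 0.05 in edgeR, 185 (1.81%) had an unadjusted p under 0.05 and DESeq2 called 1 (0.00562%), E030002O03Rik, named after its value was seen. Stra6 measured 327, 394, 491 and 354 CPM on FibCtrl plates 1 to 4 and 317, 456, 444 and 416 CPM on FibΔZeb1 plates. Its means of 392 ± 71.8 and 408 ± 63.3 CPM (SD, n = 4 each) gave a log2 difference of 0.06 (SE 0.18, adjusted p = 0.9996, edgeR), and the sign turned without FibCtrl 1, FibCtrl 4 or FibΔZeb1 2, to between -0.015 and -0.006. Aldh1a1 varied more between plates than between genotypes, from 47.0 to 153 CPM in FibCtrl and from 36.3 to 276 CPM in FibΔZeb1. Its log2 difference was 0.43 (SE 0.54, adjusted p = 0.9996, edgeR) and turned to -0.22 without FibΔZeb1 3, the plate at 276 CPM. Rdh10 lay at 101 ± 42.7 and 126 ± 26.7 CPM (SD, n = 4 each), with a log2 difference of 0.33 (SE 0.33, adjusted p = 0.9996, edgeR), which fell to 0.07 without FibCtrl 1.

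Aldh1a2 was scarce in epithelial-like wells, and its plates did not overlap. FibCtrl plates 1 to 4 measured 1.70, 0, 2.19 and 0.61 CPM of Aldh1a2, from 5, 0, 3 and 1 transcripts, and FibΔZeb1 plates 42.2, 9.68, 6.46 and 7.10 CPM, from 64, 13, 14 and 9. Every FibΔZeb1 plate was above every FibCtrl plate, as for 0.626% of the genes tested. Aldh1a2 did not pass the filter here and is not among those genes, so their share is no background for a gene this scarce. Without the filter, its log2 difference was 3.62 with an adjusted p of 0.957 in edgeR (3.72 and 0.463 in DESeq2). As a share of its stromal level on the same plate, Aldh1a2 in epithelial-like wells was 0.59% to 8.91% over the 7 plates with stromal Aldh1a2, and Col1a1 was 0.48% to 3.60% over all 8. On FibΔZeb1 1 these shares were 8.91% for Aldh1a2 and 2.69% for Col1a1, and on FibΔZeb1 3 they were 0.68% and 0.58%. Col3a1, Sparc, Dcn and Mgp had shares of 2.79% to 5.07% on FibΔZeb1 1 and of 0.89% to 3.88% on FibΔZeb1 3. Most epithelial-like wells of FibΔZeb1 1 belonged to the Twist1-led cluster. Fibroblast markers summed to 2537 CPM in that cluster and to 633 CPM in the Tgm3-led cluster. The part of stromal RNA in epithelial-like wells was not tested further.

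Aldh1a2 plates did not overlap in immune wells either, but the counts were low. The gap lay between FibΔZeb1 2, with 3 transcripts, and FibCtrl 4, with 4, and counting error could close it. Aldh1a2 measured 2.77, 0, 0 and 6.73 CPM on FibCtrl plates 1 to 4, from 2, 0, 0 and 4 transcripts, and 45.8, 8.90, 30.7 and 40.3 CPM on FibΔZeb1 plates, from 47, 3, 15 and 14. The plates did not overlap, as for 0.585% of the 6842 genes tested with FibΔZeb1 higher, and 0 of these genes (0.0%) passed an adjusted p of 0.05 in edgeR or DESeq2, with 176 (2.57%) at an unadjusted p under 0.05 in edgeR. Aldh1a2 did not pass the filter in immune wells either, so the share of tested genes is no background for it. Without the filter, Aldh1a2 had a log2 difference of 3.37 (adjusted p = 0.168, edgeR). Its level in immune wells was 0% to 11.5% of the stromal level on the same plate, where Col1a1 was at 1.21% to 6.45% and Col3a1 at 2.19% to 8.64%. Summed over FibΔZeb1 plates, Aldh1a2 was at 71.7 CPM in dendritic-like wells (19 transcripts), 62.2 CPM in neutrophil-like wells (18 transcripts) and 29.5 CPM in macrophage-like wells (33 transcripts). Stra6, the one gene of the 9 that was tested in immune wells, had means of 75.2 ± 33.9 and 77.4 ± 36.8 CPM (SD, n = 4 each) and a log2 difference of 0.13 (SE 0.43, adjusted p = 0.9999, edgeR), which turned to -0.15 without FibΔZeb1 3 and to -0.004 without FibΔZeb1 4.

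The surrounding pathway was read from 41 further genes of retinol uptake, interconversion, clearance, receptors and response. Of these, 40 were listed and 19 passed the filter in fibroblast-like wells. None passed an adjusted p of 0.05 between the genotypes in edgeR, where 0.0138% of all genes did, and 6 of 19 had an unadjusted p under 0.05, where 3.79% of all genes did. Those 6 were Rarres2 (log2 difference -2.73), Fabp5 (-3.72), Rbp4 (-1.83), Rarg (-0.97), Tgm2 (2.01) and Dhrs4 (1.08). DESeq2 called Fabp5 (adjusted p = 0.038) and Rarres2 (adjusted p = 0.049) among its 7 genes (0.089% of 7865). The median log2 difference of the 19 genes was 0.17, beside 0.01 over all genes.

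Rarres2 encodes the chemoattractant chemerin and was first found as a gene induced by a retinoid. It measured 202, 334, 467 and 1212 CPM on FibCtrl plates and 42.1, 176, 83.5 and 170 CPM on FibΔZeb1 plates, without overlap, as for 2.57% of genes with FibΔZeb1 lower (log2 difference SE 0.72, adjusted p = 0.9996, edgeR). Tgm2, a transglutaminase induced by retinoic acid in many cells, was at 114, 433, 80.0 and 18.7 CPM on FibCtrl and at 255, 264, 461 and 153 CPM on FibΔZeb1 plates. Tgm2 plates overlapped only through FibCtrl 2, with 4 wells (log2 difference SE 0.64, adjusted p = 0.9996, edgeR). Fabp5, a fatty acid binding protein that also carries retinoic acid, was at 74.4, 0, 616 and 17.3 CPM on FibCtrl and 10.2, 0, 14.2 and 20.9 CPM on FibΔZeb1 plates. Its log2 difference was -1.76 without FibCtrl 3, which held the 616 CPM. Dhrs3, which reduces retinal back to retinol, was at 200 ± 102 and 176 ± 54.1 CPM (SD, n = 3 each), and the corepressor gene Ncor1 at 155 ± 31.1 and 151 ± 22.8 CPM.

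Between classes, 10 of 21 tested pathway genes differed against epithelial-like wells, 9 higher in fibroblast-like wells and Rdh9 lower, beside 38.8% of all genes (19.8% higher). Rarres2 (log2 difference 7.93, SE 0.44), Dhrs3 (2.98, SE 0.31) and Tgm2 (2.49, SE 0.54) were among the 9. Against immune wells 10 of 16 differed, with 6 higher and 4 lower, beside 42.4% of all genes. Of those lower in fibroblast-like wells, Ncor1 differed by a log2 difference of -0.73 (SE 0.20) and Fabp5 by -1.70 (SE 0.62). Between the genotypes, none of the 20 tested genes passed in epithelial-like wells and none of the 13 in immune wells, with 2 and 3 at an unadjusted p under 0.05 in edgeR and none past the adjusted threshold in DESeq2.

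Genes whose levels went with Aldh1a2 over the 149 fibroblast-like wells, after subtraction of plate means, were Lrrn2 (Pearson r 0.38), 1500015O10Rik (0.37), Slit3 (0.35), Wnt4 (0.34) and Cyp7b1 (0.34), out of 7876 genes compared. For Aldh1a3 they were Daglb (r 0.51), Ebf2 (0.48), Pcolce2 (0.48), Duoxa1 (0.47) and Antxr2 (0.46). Aldh1a2 and Aldh1a3 themselves had an r of 0.00036. These values are descriptions over wells that share 8 libraries and differ in depth, and wells are not independent replicates.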

How the data were processed

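SORT-seq (CEL-Seq2 chemistry) was run on 8 plates. Reads were aligned by the authors to GRCm38, with BWA and Cell Ranger 2.1.1 named in their processing notes, and deposited as estimated counts: transcripts per gene and well from molecular barcodes, corrected for barcode collisions (87.1% of values above 0 were whole). The 8 tables use the same 384 well names, which carry no link between plates. The members and all lists were chosen with earlier results of these data known. Sorting gates per well were not analysed here.

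Wells needed 500 cell transcripts (no spike-in or mitochondrial rows) and a mitochondrial share within 3 median absolute deviations above the plate median. Clusters were built (2000 variable genes without the retinoid genes, 20 components, 15 neighbours, Leiden resolution 1, seed 1) and named where the marker score reached 0.5 with at least 3 markers in 10% of wells. Of 23 clusters, 19 were named, and 418 wells (22.8%) stayed unnamed. Doublets were handled only by setting aside fibroblast-like wells with 2 or more Ptprc or Epcam transcripts. Counts were summed per class and plate, rounded, and tested with edgeR 4.0.16 (TMM, filterByExpr, quasi-likelihood, Benjamini-Hochberg), with DESeq2 1.42.0 as an alternative, both in R 4.3.3. The test was checked on simulated data. One tag is counted per transcript, so levels were not divided by length. Named were all members, Zeb1 and pathway genes past an adjusted p of 0.05 between genotypes (none in edgeR). So were the 6 pathway genes highest in fibroblast-like wells, and the 5 genes most correlated with Aldh1a2 or Aldh1a3. The other pathway genes with an unadjusted p under 0.05, and those past it between classes, were named after their values were seen. A pathway gene that these rules would name is counted but not reported here. Each plate is labelled as a replicate, and the study describes 1 mouse per plate. Intervals cover counting error only. In sums of epithelial-like wells, plates of a genotype differed by a chi-square per degree of freedom of 9.05 to 21.5, far beyond sampling noise. The other classes were not measured this way.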

Additional observations from a re-analysis of the deposited data

Results flagged for a closer look

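Of 27 groups of 4 plates tested for a plate far from the others, 2 had one, where chance gives about 1 in 20 groups. Aldh1a2 in epithelial-like wells stood at 42.2 CPM on FibΔZeb1 1, while the other FibΔZeb1 plates lay at 6.46 to 9.68 CPM. Cyp26b1 in epithelial-like wells stood at 20.8 CPM on FibΔZeb1 3, the other FibΔZeb1 plates at 0.79 to 2.98 CPM, and 1 well alone held 33 of its 45 transcripts (73.3%).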

How the results depend on the processing

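The number of genes past an adjusted p of 0.05 between the genotypes in fibroblast-like wells was 1 and became 7 with DESeq2, 121 without the count filter, and 0 with classes from the highest marker sum, with all stromal classes together, or with replicate number as a block. Leaving out single plates gave 0 to 1, with 1 only without FibCtrl 3. In epithelial-like wells it went from 0 to 1 (E030002O03Rik) with DESeq2 and with the replicate block. Against immune wells 3126 genes became 5009 without the filter.

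Replicate numbers were not taken as pairs, since not every same-numbered pair of plates had correlated deviations over 0.1: these were -0.06 to 0.14 in fibroblast-like, 0.05 to 0.54 in epithelial-like and 0.09 to 0.20 in immune wells. In epithelial-like wells FibCtrl 1, 2 and 3 each went best with their own number, and FibCtrl 4 with FibΔZeb1 3 (0.35). Mean shares of wells with a transcript after thinning to 3000 instead of 1000 transcripts rose from 4.08% to 13.0% (FibCtrl) and 37.3% to 51.9% (FibΔZeb1) for Aldh1a2, and from 9.91% to 19.97% and 0% to 14.8% for Aldh1a3. Leaving out wells with Msln, Upk3b, Upk1b, Lrrn4 or Bnc1, an alternative chosen after seeing the data, moved Aldh1a2 in FibCtrl from 48.8 to 38.9 CPM.

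The Aldh1a2 log2 difference was 2.03 with all stromal classes together and 4.43 with Ptprc or Epcam wells kept, and that of Rdh10 was 0.38 with all stromal classes. The epithelial Stra6 difference turned to -0.072 with classes from the marker sum, and was -0.015 to 0.17 with 1 plate left out (-0.013 without FibCtrl 1, -0.015 without FibCtrl 4, -0.006 without FibΔZeb1 2). That of Aldh1a1 was -0.22 (without FibΔZeb1 3) to 0.73, and that of immune Stra6 -0.15 (without FibΔZeb1 3) to 0.43, with -0.004 without FibΔZeb1 4. Without the filter, Rdh10 passed between fibroblast-like and epithelial-like wells (adjusted p = 0.043) and Stra6 against immune wells (adjusted p = 0.049). Leaving out the cluster led by Twist1, also chosen after seeing the data, changed no call of these genes in epithelial-like wells. The causes were not tested.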

Other observations

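Wells without a class name held Aldh1a2 at 37.1, 0, 0 and 6.57 CPM on FibCtrl plates 1 to 4 and at 265, 14.6, 24.0 and 26.6 CPM on FibΔZeb1 plates 1 to 4. Stra6 was listed in them at 121 to 204 CPM on FibCtrl and 139 to 345 CPM on FibΔZeb1 plates. Wells with fewer than 100 cell transcripts, which include wells left empty on purpose, held 1 transcript of Aldh1a2 over the 8 plates. It was among 2454 cell transcripts of such wells on FibΔZeb1 1. These wells held only 126 to 4338 cell transcripts per plate, too few to measure a low background of Aldh1a2.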
